A study of Arabidopsis thaliana with 10 samples.

Results

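The expansin gene family of Arabidopsis thaliana was described in seedlings with raised or lowered transcript of the growth-restraining proteins IBH1 and IBL1. Its 36 members were taken by gene ID from the 34047 genes of the deposited tables and fall into 4 subfamilies: 26 alpha-expansins (EXPA), 6 beta-expansins (EXPB), 3 expansin-like A genes (EXLA) and 1 expansin-like B gene (EXLB1). All 36 IDs carry an expansin name in the RefSeq annotation. Whole Col-0 seedlings were harvested at age 10 days, after growth without treatment at 22 °C in days of 16 h light, and their poly(A) RNA was sequenced. The 5 genotypes were wild-type Col, a homozygous 35Spro:IBH1-GFP line (IBH1 overexpressor), a homozygous 35Spro:IBL1-GFP line (IBL1 overexpressor), the homozygous insertion mutant ibh1 (SALK 049177) and the homozygous insertion mutant ibl1 (SALK 119457). The 35S promoter drives transcription in nearly all plant tissues, so excess transcript is not limited to the cells that normally make it; whether each line came from 1 insertion event is not given in the sources used here.

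Each genotype has 2 libraries, called biological replicates in the series' design, although a protocol text mentions 3 repeats. Nothing says that the seedlings of a pair were grown apart, and the p-values then cover only the variation between those libraries. The tables give a single FPKM value per genotype (fragments scaled by transcript length and library size), which hides the replicate spread. Library depths are unknown. IBH1 stood at 22.2 FPKM in Col, 5148 in its overexpressor and 6.91 in the ibh1 mutant, and IBL1 at 7.70, 201 and 1.87 FPKM in Col, its overexpressor and the ibl1 mutant, by the authors' deposited table. IBL1 was also low in the IBH1 overexpressor, at 1.84 FPKM. The ibl1 mutant had a like IBL1 level. As given further on, 8 of 24 expansins were lower in the IBH1 overexpressor than in that mutant, beside 3.27% of 19806 genes differing in either direction. The part of low IBL1 in the expansin changes was not tested. Both mutants kept part of the transcript.

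Expansins are secreted proteins that loosen the cell wall at acidic pH without cutting its polymers, which lets a cell under turgor enlarge. Alpha-expansins are the main agents of this acid growth in seedlings, beta-expansins act on related wall polymers, and the expansin-like subfamilies share the fold but have no established wall-loosening activity. Brassinosteroids promote elongation partly by raising expansin transcripts, and HBI1, a basic helix-loop-helix factor that IBH1 binds and holds back, is a known activator of expansin genes. IBL1 is a close homologue of IBH1.

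Of the 36 members, 23 averaged at least 1 FPKM over the 5 genotypes, 17 at least 10 FPKM and 5 at least 50 FPKM. EXPA1 was the most abundant in every genotype, followed by EXPA4, EXPA6, EXPB3 and EXPA10 in an order that varied little, and these 5 genes held 61.1% of the summed family FPKM in Col. Another 4 genes (EXPA2, EXPA12, EXPA21 and EXPB2) were above 0 in some genotype but averaged under 1 FPKM. The remaining 9 were listed at 0 in all 5 genotypes: the pseudogene EXPA19, the chromosome 5 cluster EXPA22 to EXPA26, and EXPB4, EXPB5 and EXPB6.

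**Figure D1:**
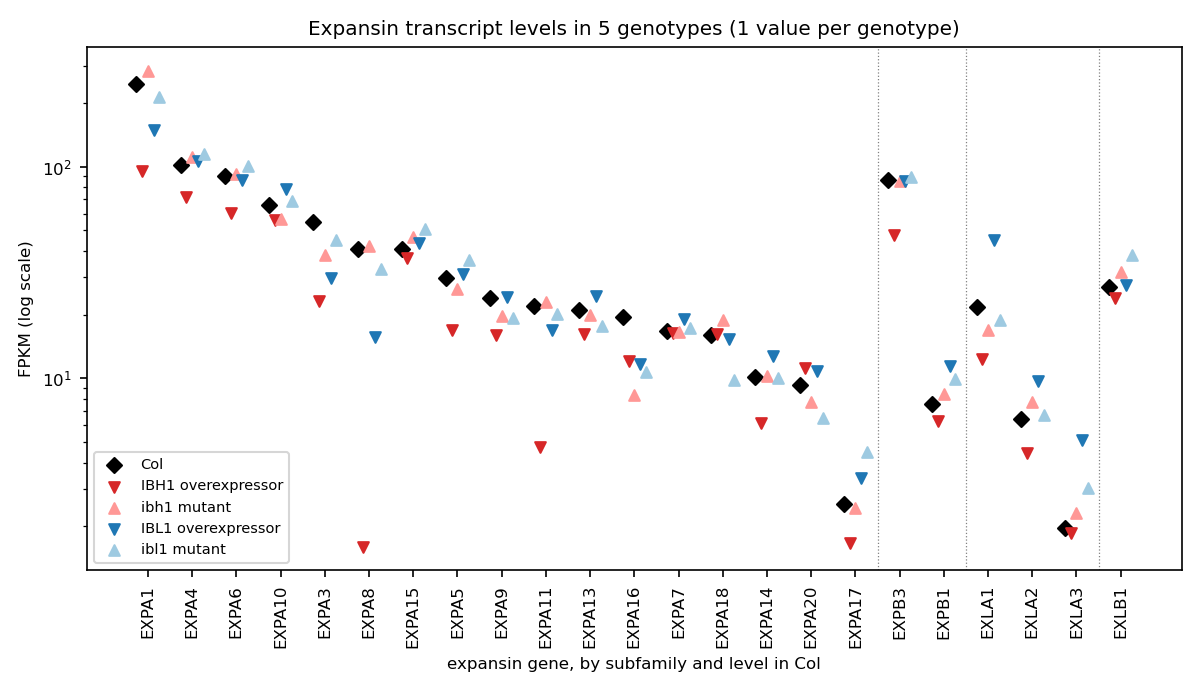
Transcript level (FPKM, log axis) of the 23 expansins that averaged at least 1 FPKM, ordered by subfamily and by level in Col, with 1 symbol per genotype and no error because the files hold 1 value per genotype. The IBH1 overexpressor (red) is the lowest symbol for 20 of the 23 genes, and EXPA8 drops to 1.61 FPKM there.

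The IBH1 overexpressor had the lowest level of the 5 genotypes for 20 of these 23 expansins, while it was the lowest for 24.6% of all 20456 genes at the same level. The 3 exceptions were EXPA16, lowest in the ibh1 mutant, and EXPA18 and EXPA20, lowest in the ibl1 mutant. Col was the lowest genotype for no member, against 20.4% of all genes, and the highest for 2, EXPA3 and EXPA16, against 17.4%. The IBL1 overexpressor was the highest for 9 members, against 37.2% of all genes.

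Excess IBH1 was accompanied by lower transcript of 7 of 19 tested alpha-expansins and of members of 2 other subfamilies. Of all 26 members tested in the IBH1 overexpressor, 9 fell and 0 rose by the authors' q-values (below 0.05, adjusted over all genes tested), and 23 of the 26 had values under Col. Among all 20694 genes tested, 4.19% fell and 3.82% rose. At an unadjusted p below 0.05, 12 members were lower and 0 higher, beside 10.3% and 9.91% of those genes. The 9 were 7 alpha-expansins (EXPA1, EXPA3, EXPA4, EXPA5, EXPA6, EXPA8 and EXPA11), EXPB3 and EXLA1. Over the 23 expressed members the median log2 change (pseudocount 0.1 FPKM) was -0.57, beside 0.00 over all genes at that level. These changes cannot distinguish fewer expansin-expressing cells from less transcript per cell.

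**Figure D2:**
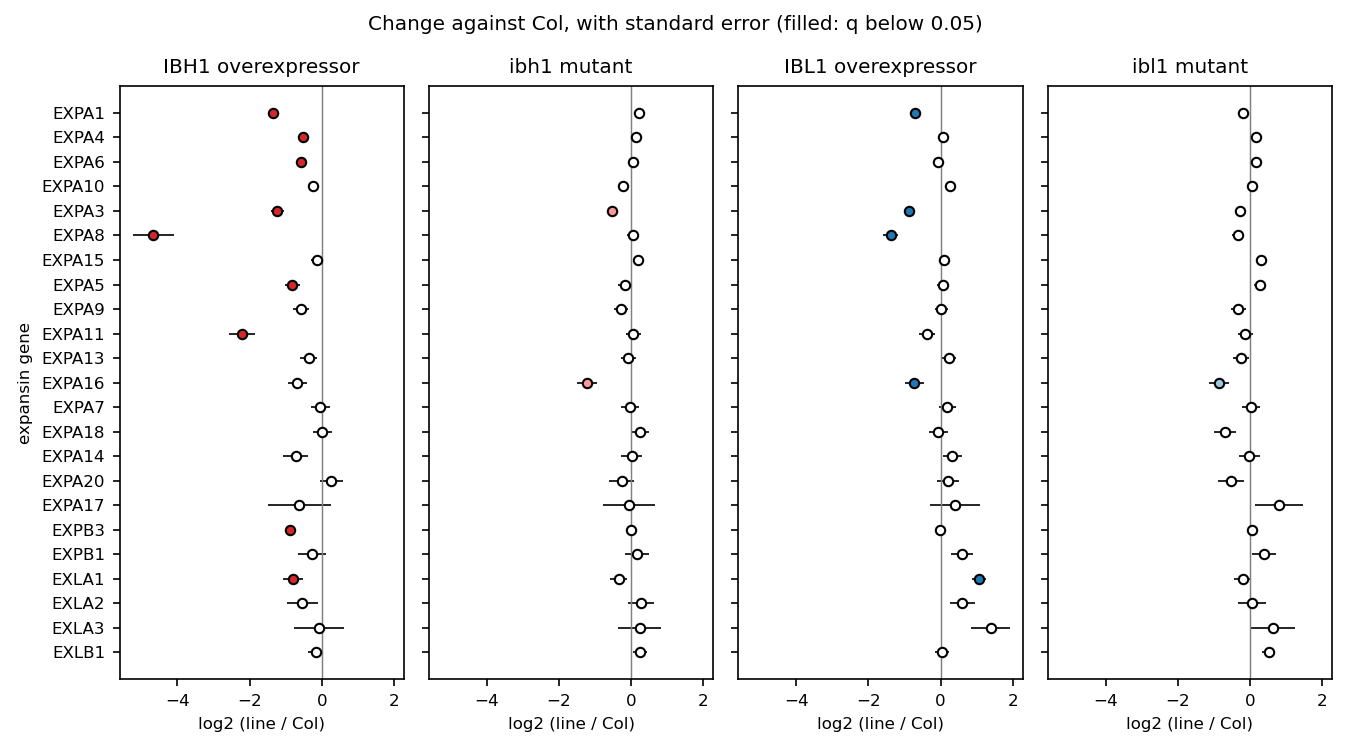
Log2 change against Col for the 23 expansins in each line, with the standard error derived from the deposited statistic; filled symbols have a q-value below 0.05. Filled symbols to the left of 0 number 9 in the IBH1 overexpressor and 4 in the IBL1 overexpressor, where EXLA1 is filled to the right.

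EXPA8 (AT2G40610, chromosome 2, 16948863 to 16950557, TAIR10), an alpha-expansin known as a target of HBI1, stood at 41.0 FPKM in Col, 1.61 with excess IBH1, 42.3 in ibh1, 15.7 with excess IBL1 and 32.7 in ibl1. Both overexpressors were below all other genotypes, and the IBH1 overexpressor kept 3.92% of the Col level. The fall against Col was 25.5-fold in the IBH1 overexpressor (log2 -4.67 ± 0.57, the figure after ± being the standard error, log2 change over deposited statistic, authors' q 3.8e-14) and 2.62-fold in the IBL1 overexpressor (log2 -1.39 ± 0.20, authors' q 7.25e-10). In the mutants the log2 changes were 0.04 ± 0.16 and -0.32 ± 0.17, and neither passed the test.

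EXPA11 (AT1G20190, chromosome 1, 6998489 to 6999817), another alpha-expansin, was at 22.1 FPKM in Col and at 4.76, 22.9, 16.9 and 20.2 FPKM in the IBH1 overexpressor, the ibh1 mutant, the IBL1 overexpressor and the ibl1 mutant. It fell 4.64-fold in the IBH1 overexpressor (log2 -2.21 ± 0.36, authors' q 5.95e-08) and passed the test in no other line, the IBL1 overexpressor having -0.39 ± 0.22 (authors' q 0.249). EXPA1 (AT1G69530, chromosome 1, 26141832 to 26143500), the most abundant member, known from guard cells and growing leaves, was at 246 FPKM in Col and at 95.9, 284, 149 and 214 FPKM in the same order of lines. It fell in both overexpressors, by 1.36 ± 0.10 and 0.72 ± 0.08 on the log2 scale (authors' q listed as 0 in both), and the mutants lay on either side of Col at 0.21 ± 0.09 and -0.20 ± 0.08 without passing the test.

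EXPA3 (AT2G37640, chromosome 2, 15787705 to 15789853) was highest in Col, at 54.7 FPKM, and stood at 23.2, 38.1, 29.9 and 45.0 FPKM in the IBH1 overexpressor, the ibh1 mutant, the IBL1 overexpressor and the ibl1 mutant. It fell in 3 lines, with log2 changes of -1.24 ± 0.18 (authors' q 3.69e-10), -0.52 ± 0.15 (authors' q 0.0223) and -0.87 ± 0.15 (authors' q 3.53e-07). In the ibl1 mutant the change was -0.28 ± 0.14 (authors' q 0.282). All 4 comparisons share the same Col value, so they are not independent of each other.

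The other alpha-expansins that fell in the IBH1 overexpressor changed by less than 2-fold. EXPA4 (AT2G39700, chromosome 2, 16543832 to 16545584) went from 102 FPKM in Col to 71.6 (log2 -0.51 ± 0.11, authors' q 0.000169) and was between 106 and 115 FPKM in the 3 other lines. EXPA6 (AT2G28950, chromosome 2, 12431341 to 12433595) went from 90.2 to 60.5 FPKM (log2 -0.58 ± 0.12, authors' q 3.52e-05), with 86.0 to 101 FPKM in the others. EXPA5 (AT3G29030, chromosome 3, 11011308 to 11013358), an expansin tied to brassinosteroid-driven growth, went from 29.9 to 16.9 FPKM (log2 -0.82 ± 0.21, authors' q 0.00191), with 26.3 to 36.3 FPKM in the others. For all 3 genes the IBH1 overexpressor was the lowest genotype, and no other line passed the test against Col.

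The upstream bases of the 4 genes that fell more than 2-fold in the IBH1 overexpressor, and of EXLA1, the member that rose in the other overexpressor, are shown because E-boxes are the elements that basic helix-loop-helix factors bind. Each run is the 250 bases before the RefSeq gene start (TAIR10.1), read 5′ to 3′ on the gene's strand, with every E-box (CANNTG, both strands) in capitals. EXPA8 lies at chr2:16950706-16950955 (minus strand), EXPA11 at chr1:6999840-7000089 (minus), EXPA1 at chr1:26141476-26141725 (plus), EXPA3 at chr2:15790140-15790389 (minus) and EXLA1 at chr3:16895916-16896165 (plus).
EXPA8: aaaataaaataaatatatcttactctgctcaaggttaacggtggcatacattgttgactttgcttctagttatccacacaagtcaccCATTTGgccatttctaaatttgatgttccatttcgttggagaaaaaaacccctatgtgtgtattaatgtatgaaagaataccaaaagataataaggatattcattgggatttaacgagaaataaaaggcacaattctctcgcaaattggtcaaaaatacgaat
EXPA11: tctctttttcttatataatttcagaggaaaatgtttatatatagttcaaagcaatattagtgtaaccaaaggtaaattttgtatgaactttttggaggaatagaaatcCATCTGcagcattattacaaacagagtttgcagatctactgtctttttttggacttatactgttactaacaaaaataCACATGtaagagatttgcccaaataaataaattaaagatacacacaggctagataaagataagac
EXPA1: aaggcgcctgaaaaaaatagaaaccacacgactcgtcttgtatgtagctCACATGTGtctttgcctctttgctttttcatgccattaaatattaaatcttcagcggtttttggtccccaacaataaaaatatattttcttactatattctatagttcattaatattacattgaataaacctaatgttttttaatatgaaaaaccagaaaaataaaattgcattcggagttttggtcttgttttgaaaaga
EXPA3: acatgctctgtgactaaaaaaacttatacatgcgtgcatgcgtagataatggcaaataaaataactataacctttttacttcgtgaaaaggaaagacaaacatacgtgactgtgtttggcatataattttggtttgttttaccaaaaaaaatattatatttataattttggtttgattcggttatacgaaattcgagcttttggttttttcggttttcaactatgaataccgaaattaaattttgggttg
EXLA1: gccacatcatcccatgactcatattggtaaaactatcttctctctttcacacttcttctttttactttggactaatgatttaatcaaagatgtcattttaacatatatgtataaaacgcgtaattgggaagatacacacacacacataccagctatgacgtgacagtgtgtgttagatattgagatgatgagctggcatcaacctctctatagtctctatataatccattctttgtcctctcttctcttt

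EXPA8 holds 1 E-box in this window, EXPA11 holds 2, and EXPA1 holds 2 that overlap as CACATGTG, while EXPA3 and EXLA1 hold none. Of the 23 expressed expansins, 15 hold an E-box there, as do 56.2% of 19481 protein-coding genes at 1 FPKM or more, and among the 9 that fell in the IBH1 overexpressor 5 do. The PBE-box CATGTG, an E-box form bound by phytochrome-interacting factors and counted within CANNTG, is in 5 of 23 against 11.2% of genes, and in 2 of the 9. The G-box CACGTG, also counted within CANNTG, is in 0 of 23 against 7.18%. The brassinosteroid response element bound by BZR1 was searched as CGTGTG (3 of 23 against 5.50%) and as CGTGCG (3 of 23 against 1.64%). The first form is in 2 of the 9 that fell. The second is in 1 of the 9, EXPB3, and in the root-hair genes EXPA7 and EXPA18. In 1000 bases CANNTG is in all 23 (96.5% of genes), CATGTG in 13 (38.0%), CACGTG in 1 (15.7%), CGTGTG in 9 (17.7%) and CGTGCG in 5 (5.43%). A match describes letters only, and these windows follow annotated starts, which differ from the starts in the files for most members.

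**Figure D3:**
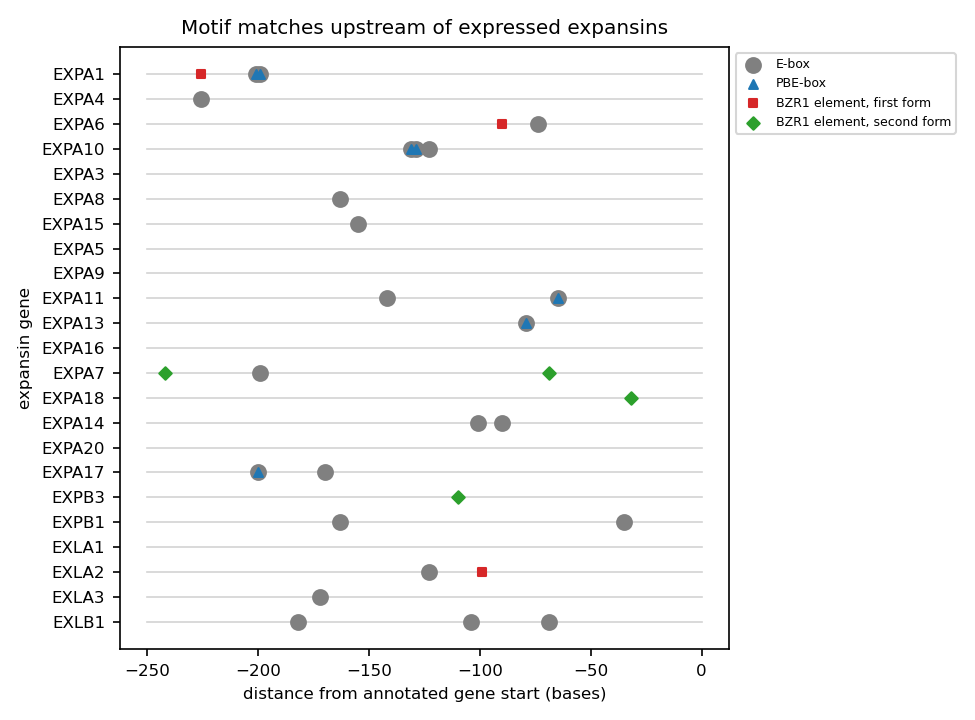
Positions of motif matches in the 250 bases before the annotated start (distance in bases, 0 being the start) of the 23 expressed expansins. Grey circles are E-boxes, present in 15 of the 23 genes; blue triangles are PBE-boxes, and red squares and green diamonds are the CGTGTG and CGTGCG forms of the element bound by BZR1.

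The alpha-expansins of root hairs passed the test in no line. EXPA7 (AT1G12560, chromosome 1, 4276519 to 4277899) was at 16.8 FPKM in Col and between 16.3 and 19.1 FPKM in the 4 lines, with log2 changes from -0.04 to 0.18. EXPA18 (AT1G62980, chromosome 1, 23331676 to 23333110) was at 16.0 FPKM in Col, 16.2 with excess IBH1, 18.9 in ibh1, 15.4 with excess IBL1 and 9.85 in ibl1. The low value in the ibl1 mutant (log2 -0.70 ± 0.30) did not pass the test (authors' q 0.182). EXPA17 (AT4G01630) and EXPA14 (AT5G56320), which act in lateral root emergence, were at 2.56 and 10.1 FPKM in Col and at 1.67 and 6.13 FPKM in the IBH1 overexpressor, and neither passed the test in any line.

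EXPA16 (AT3G55500, chromosome 3, 20574831 to 20576182), whose coding sequence is the nearest to that of EXPA4 (80.2% identical bases), showed a different order of genotypes. It was at 19.4 FPKM in Col, 12.1 with excess IBH1, 8.35 in ibh1, 11.7 with excess IBL1 and 10.7 in ibl1. All 4 lines were below Col, with the ibh1 mutant the lowest. It fell in the ibh1 mutant (log2 -1.22 ± 0.28, authors' q 0.00136), the IBL1 overexpressor (log2 -0.73 ± 0.25, authors' q 0.0337) and the ibl1 mutant (log2 -0.86 ± 0.27, authors' q 0.0301), and had -0.68 ± 0.27 in the IBH1 overexpressor (authors' q 0.0986). The call in the ibl1 mutant was lost after median centring (adjusted p 0.0679), and that in the IBL1 overexpressor without the status filter (adjusted p 0.0534). No difference between lines at EXPA16 passed the test in the 6 direct comparisons, and the shared Col value enters all 4 changes.

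Of the remaining expressed alpha-expansins, EXPA9 (AT5G02260), EXPA10 (AT1G26770), EXPA13 (AT3G03220), EXPA15 (AT2G03090) and EXPA20 (AT4G38210) passed the test in no line. EXPA10, an expansin of leaf and pedicel growth, was at 66.2 FPKM in Col and between 55.8 and 78.6 FPKM in the lines. EXPA15 was at 40.9 FPKM in Col and between 37.0 and 50.5 FPKM in the lines. EXPA9 was at 24.1 FPKM in Col and 16.0 in the IBH1 overexpressor (log2 -0.59 ± 0.22, authors' q 0.0812). EXPA20 shares 1061 bases with an annotated non-coding RNA on the other strand, and whether the counting used strand is not given, so its 9.36 FPKM in Col may include reads of that RNA.

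EXPA2 (AT5G05290, chromosome 5, 1568694 to 1569864), an expansin of germinating seeds, was at 2.04 FPKM in Col and at 1.38, 0.524, 0.621 and 0 FPKM in the IBH1 overexpressor, the ibh1 mutant, the IBL1 overexpressor and the ibl1 mutant. The ibl1 mutant, listed at 0, was called lower (authors' q 0.0438), and no fold change can be given. This call was lost when the adjustment covered only genes reaching 1 FPKM in line and Col alike, which drops the gene, or all genes whatever their status. EXPA21 (AT5G39260) was at 1.59 FPKM in Col and between 0.367 and 0.897 FPKM in the lines, passed no test, and overlaps a protein-coding gene on the other strand by 964 bases. EXPA12 (AT3G15370) did not exceed 0.552 FPKM.

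Within the beta-expansins, EXPB3 (AT4G28250, chromosome 4, 14000038 to 14002069) supplied most of the transcript. It was at 86.8 FPKM in Col, 47.5 with excess IBH1, 85.9 in ibh1, 85.9 with excess IBL1 and 89.7 in ibl1. The IBH1 overexpressor was the lowest, with a fall of 1.83-fold (log2 -0.87 ± 0.13, authors' q 6.46e-10), while the log2 change in the IBL1 overexpressor was -0.01 ± 0.10. EXPB1 (AT2G20750), the nearest relative of EXPB3 by coding sequence (75.4% identical bases), was at 7.57 FPKM in Col and between 6.27 and 11.4 FPKM in the lines, and passed no test. EXPB2 (AT1G65680) did not exceed 1.298 FPKM.

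All 3 expansin-like A genes had their highest value in the IBL1 overexpressor, and 1 of them passed the test there. That line was also the highest for 37.2% of all 20456 genes at 1 FPKM or more. EXLA1 (AT3G45970, chromosome 3, 16896166 to 16898013) was at 21.7 FPKM in Col, 12.4 with excess IBH1, 17.0 in ibh1, 45.0 with excess IBL1 and 18.8 in ibl1. It rose 2.08-fold in the IBL1 overexpressor (log2 1.06 ± 0.19, authors' q 2.05e-06) and fell in the IBH1 overexpressor (log2 -0.81 ± 0.28, authors' q 0.0478), the latter call being lost without the status filter (adjusted p 0.0782). EXLA3 (AT3G45960), its neighbour on chromosome 3, was at 1.97 FPKM in Col and 5.15 in the IBL1 overexpressor (log2 1.38 ± 0.53, authors' q 0.0612), and EXLA2 (AT4G38400) at 6.41 and 9.76 FPKM (log2 0.61 ± 0.35, authors' q 0.255). EXLA1 and EXLA3 share 86.0% of coding bases, with identical runs of up to 57 bases, so some reads may be divided between them. The locus given for EXLA1 runs past its RefSeq end (16897308) and overlaps a protein-coding gene on the other strand. Whether the counting used strand is not given, so the EXLA1 values may include reads of that gene. EXLB1 (AT4G17030) was at 26.9 FPKM in Col and 38.4 in the ibl1 mutant (log2 0.51 ± 0.18, authors' q 0.0732), and between 23.9 and 31.8 FPKM in the other lines.

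In the IBL1 overexpressor 4 of 25 tested expansins fell (EXPA1, EXPA3, EXPA8 and EXPA16) and 1 rose (EXLA1), while 3.58% of 21480 tested genes fell and 10.3% rose. All fold changes in this line include a general shift, the median over expressed genes being 0.12 on the log2 scale, and the 5 calls were the same in number after that median was subtracted. The median over the 23 expressed expansins was 0.06, beside 0.12 over all genes at that level. EXPA1, EXPA3, EXPA8 and EXLA1 are the 4 members called in both overexpressors, EXLA1 in opposite directions. The share of all genes called in both was not computed, so whether this overlap is unusual is not known.

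In the mutants few expansins were called. In the ibh1 mutant 2 of 26 tested fell (EXPA3 and EXPA16) and 0 rose, beside 2.04% and 1.34% of 20967 genes. In the ibl1 mutant 2 of 25 fell (EXPA2 and EXPA16) and 0 rose, beside 4.4% and 1.05% of 20732 genes, a share of members near the general one. The medians over the 23 expressed expansins were 0.01 and 0.04 on the log2 scale, against 0.02 and -0.07 over all genes. At an unadjusted p below 0.05, 2 members were lower and 1 higher in ibh1, beside 7.73% and 7.66% of genes, and 5 were lower and 2 higher in ibl1, beside 12.3% and 4.65%.

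Summed over the 36 genes, expansin transcript stood at 968 FPKM in Col, 563 with excess IBH1, 980 in ibh1, 866 with excess IBL1 and 946 in ibl1. The IBH1 overexpressor thus held 58.2% of the Col sum and the other lines 89.4% to 101%. EXPA1 made up 25.4% of the sum in Col, 17.0% in the IBH1 overexpressor and 17.3% in the IBL1 overexpressor. Without EXPA1 the IBL1 overexpressor was at 716 FPKM against 722 in Col, and the IBH1 overexpressor at 467. The EXLA subfamily went from 3.10% of the sum in Col to 6.92% in the IBL1 overexpressor.

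**Figure D4:**
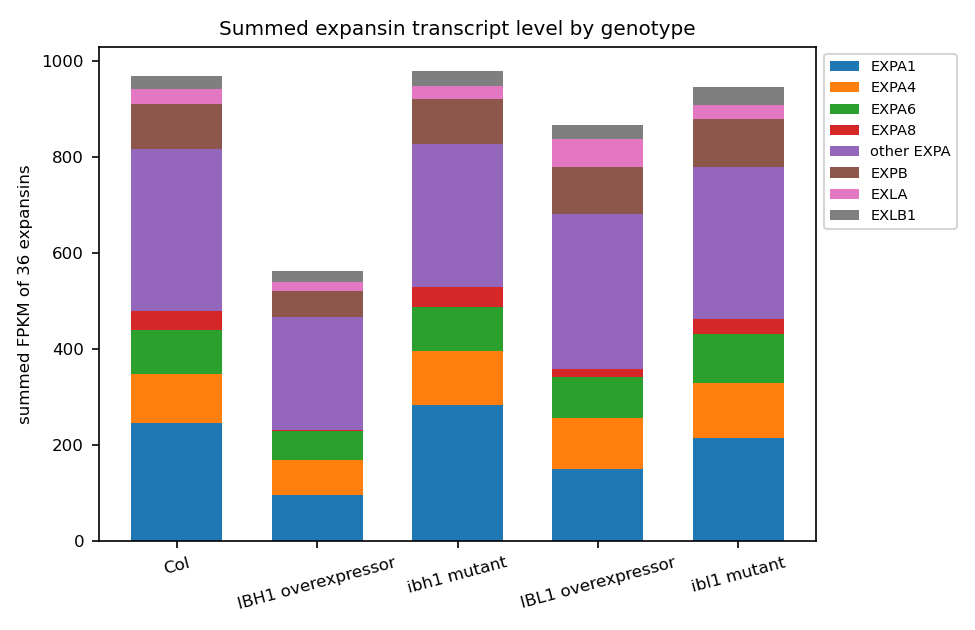
Summed FPKM of the 36 expansins in each genotype, stacked by gene or subfamily, 1 value per genotype and no error. The IBH1 overexpressor reaches 563 FPKM against 968 in Col, with lower EXPA1, other alpha-expansin and beta-expansin segments, and the EXLA segment is largest in the IBL1 overexpressor.

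Lines were then compared directly, to ask where the response differs between them. The overexpressors differ in the gene raised and in how far it was raised. IBH1 went from 22.2 FPKM in Col to 5148 in its overexpressor, and IBL1 from 7.70 to 201. The part of transgene level in the differences between these lines was not tested. Col cancels from the difference of 2 changes, and its error was counted in both, which makes the test conservative; p-values were adjusted over all genes tested in both tables. Between the overexpressors 8 of 25 members differed, all lower in the IBH1 overexpressor (EXPA1, EXPA4, EXPA5, EXPA6, EXPA8, EXPA11, EXPB3 and EXLA1), beside 5.48% of 20005 genes in either direction. EXPA8 differed 9.74-fold (log2 -3.28, 95% interval -4.47 to -2.10, adjusted p 5.24e-06), EXLA1 3.63-fold (log2 -1.86, interval -2.53 to -1.20, adjusted p 3.77e-06) and EXPA11 3.55-fold (log2 -1.83, interval -2.65 to -1.001, adjusted p 0.000709). EXPB3 differed by -0.86 (interval -1.17 to -0.54) and EXPA1 by -0.64 (interval -0.88 to -0.40). After the median shift of each line was subtracted, 6 of the 8 differed, without EXPA5 (adjusted p 0.0655) and EXPA6 (adjusted p 0.13). EXPA3, which fell in both, did not pass (log2 -0.36, interval -0.82 to 0.09, adjusted p 0.531).

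**Figure D5:**
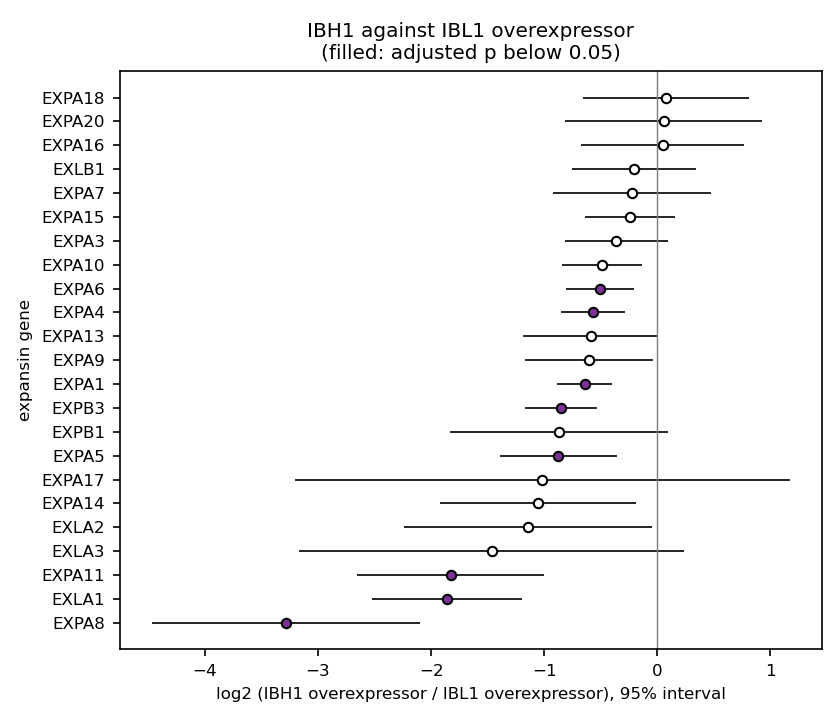
Log2 ratio of the IBH1 overexpressor to the IBL1 overexpressor for the 23 expressed expansins, with 95% intervals; filled symbols have an adjusted p below 0.05. The 8 filled genes lie between -3.28 (EXPA8) and -0.51 (EXPA6), and the intervals of EXPA16, EXPA18 and EXPA20 centre near 0.

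Against the ibh1 mutant, the IBH1 overexpressor was lower at 6 of 26 members, beside 2.91% of 19898 genes differing in either direction. EXPA8 was at 1.61 against 42.3 FPKM and EXPA1 at 95.9 against 284 FPKM, the widest gap of any 2 genotypes for both genes. The others were EXPA4, EXPA6, EXPA11 and EXPB3. Against the ibl1 mutant it was lower at 8 of 24 members (the same 6 plus EXPA3 and EXPA5), beside 3.27% of 19806 genes.

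The IBL1 overexpressor differed from each mutant at the same 3 members: EXPA1 and EXPA8 were lower in it and EXLA1 higher. This was 3 of 25 members against the ibh1 mutant and 3 of 24 against the ibl1 mutant, beside 2.54% of 20245 and 5.16% of 20088 genes. After median centring EXPA3 was also lower in the IBL1 overexpressor than in the ibl1 mutant (log2 -0.77, adjusted p 0.00884). Between the mutants 0 of 24 members differed, beside 0.466% of 19969 genes, and 2 had an unadjusted p below 0.05, beside 4.34% of genes. The smallest adjusted p there was that of EXPA1 (log2 0.41, interval 0.17 to 0.64, adjusted p 0.117), 283.6 against 213.8 FPKM. EXPA18 had a difference of 0.94 (interval 0.17 to 1.71, adjusted p 0.791).

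Other genes of wall loosening and growth were read from the same tables, in which 3.82% of all tested genes rose and 4.19% fell with excess IBH1, 1.34% and 2.04% in ibh1, 10.3% and 3.58% with excess IBL1, and 1.05% and 4.4% in ibl1. Plasma membrane proton pumps acidify the wall and so set expansin activity. AHA2 (AT4G30190), the main pump of growing tissue, went down with excess IBH1 from 256 to 187 FPKM (log2 -0.45 ± 0.07) and rose in the ibh1 mutant (0.44 ± 0.09) and the IBL1 overexpressor (0.47 ± 0.06), and was at 0.10 ± 0.07 in the ibl1 mutant. Of 9 or 10 pumps tested, the counts of those that rose and fell were 0 and 1 in the IBH1 overexpressor, 2 and 0 in the ibh1 mutant, 3 and 1 in the IBL1 overexpressor and 0 and 0 in the ibl1 mutant. AHA7 (AT3G60330) was the other that rose in the ibh1 mutant (1.21 ± 0.24), and it rose in the IBL1 overexpressor as well (1.13 ± 0.24), where AHA3 fell (-0.44 ± 0.10).

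Xyloglucan endotransglucosylase/hydrolases (XTH), which cut and rejoin the hemicellulose that tethers cellulose, fell at 8 and rose at 1 of 28 tested members in the IBH1 overexpressor. In the IBL1 overexpressor, where 10.3% of all genes rose, 7 rose and 1 fell of 29. The paralogues XTH17 and XTH18 fell in the former (-1.30 ± 0.32 and -1.05 ± 0.30) and rose in the latter (0.71 ± 0.20 and 0.85 ± 0.20). Other members were called in 1 overexpressor only. XTH8 fell in the former (-1.81 ± 0.21) and was not called in the latter (-0.26 ± 0.14). XTH23 rose in the latter (1.59 ± 0.26) and was not called in the former (0.55 ± 0.31). In each mutant 1 XTH gene fell and 0 rose. Primary wall cellulose synthases moved little: CESA3 fell (-0.22 ± 0.08) and CESA5 rose (0.37 ± 0.11) in the IBH1 overexpressor, CESA5 (0.56 ± 0.10) and CESA6 (0.26 ± 0.08) rose in the IBL1 overexpressor, and none was called in the mutants.

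Among 8 growth transcription factors, 5 fell in each overexpressor, 2 in each mutant and 0 rose in any line, where between 2.04% and 4.4% of all genes fell. PIF4 (AT2G43010), a light-regulated activator of elongation, was at 33.2 FPKM in Col and at 9.74, 16.5, 5.53 and 10.6 FPKM in the IBH1 overexpressor, the ibh1 mutant, the IBL1 overexpressor and the ibl1 mutant. It fell in all 4 lines and was lowest in the IBL1 overexpressor, while EXPA8 was lowest in the IBH1 overexpressor. A link between PIF4 and EXPA8 levels was not tested. HBI1 (AT2G18300) was at 48.9 FPKM in Col, 48.0 in the IBH1 overexpressor and 26.9 in the IBL1 overexpressor (log2 -0.86 ± 0.13).

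Marker genes of tissues were read beside these results. As a background to their calls, 3.82% of all genes rose and 4.19% fell in the IBH1 overexpressor. The shares were 1.34% and 2.04% in ibh1, 10.3% and 3.58% in the IBL1 overexpressor, and 1.05% and 4.4% in ibl1. The summed FPKM of 6 green tissue markers was 50437 in Col, 35924 with excess IBH1, 37850 in ibh1, 30148 with excess IBL1 and 34332 in ibl1, with 5, 3, 5 and 5 of the 6 called lower. The calls were all in the 5 light-harvesting antenna genes. RBCS1A, the other marker, was called in no line, at 14959 FPKM in Col and between 13116 and 14548 FPKM in the lines. Root markers other than root hairs (7 genes) summed to 121 FPKM in Col and to 103, 167, 164 and 121 FPKM in the same lines, with 1 called lower with excess IBH1, 2 higher in ibh1 and 3 higher with excess IBL1. Root hair markers (8 genes) summed to 135 FPKM in Col and to between 119 and 181 FPKM in the lines, with 1 called higher with excess IBH1 and 1 in ibh1. Guard cell markers (3 genes) summed to 95.1 FPKM in Col and to between 68.2 and 93.6 FPKM in the lines, with none called. Of 3 floral markers AP1 was listed at 0 in all genotypes but the ibl1 mutant (0.174 FPKM), AG stayed under 1 FPKM, and SEP3 was at 5.49 FPKM in Col and 44.9 with excess IBH1. The part of tissue make-up in the expansin changes was not tested.

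Of the 9 members listed at 0, 5 lie together. EXPA22 (AT5G39270), EXPA23 (AT5G39280), EXPA24 (AT5G39310), EXPA25 (AT5G39300) and EXPA26 (AT5G39290) lie within chromosome 5 between 15729118 and 15740514, next to EXPA21. The pairs EXPA22 and EXPA26 (97.7% identical coding bases) and EXPA23 and EXPA25 (97.1%) share identical runs of 208 and 219 bases, so reads could not be assigned between them with certainty, and all are listed at 0. EXPB6 (AT1G65681) adjoins EXPB2 on chromosome 1 and is nearest in sequence to EXPB4 (AT2G45110, 75.7%). None of the members that fell in the IBH1 overexpressor, other than EXLA1, shares an identical run longer than 32 bases with another expansin.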

How the data were processed

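Poly(A) RNA of 5 genotypes was sequenced by the submitters, who used CASAVA 1.8.2, TopHat 1.4.1 and Cuffdiff against TAIR10, per the submitters' processing notes. The authors deposited FPKM values in 4 tables (each a line beside Col), pooled over the libraries of a genotype. Per the file headers, each table also holds the authors' p-value and q-value and a test score (statistic). The scaling between groups, the gene models, the Cuffdiff version and strand handling are not given in the sources used. Low FPKM values scaled by RefSeq length showed no steps of whole reads (at most 16.3% of 300 low values lay within 0.05 of a whole multiple). RefSeq spans differ from those of the submitters for most members, and values are pooled over libraries, so steps could have been hidden. Depth stayed unknown and no count test was run.

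Calls required a q of the authors below 0.05 and the status OK. The deposited q equalled a Benjamini-Hochberg adjustment over those genes to within 2.39e-06. Fold changes were recomputed as line over Col, and the standard error as log2 change over statistic. Lines were compared by the difference of their changes over the root of the summed squared errors (two-sided normal p, Benjamini-Hochberg over all genes, scipy 1.17.1). The median-centred form was run on simulated data drawn from these same errors, without a shared Col, so that run checks the code only. Members and lists were chosen with earlier results of these data known. All 36 expansins are named, and outside the family only genes of fixed lists: the targets in every genotype, and per list and comparison at most the 3 called genes with the largest change, apart from RBCS1A, AG and AP1 among the markers and from values of a named gene in the other lines. Upstream bases and coding sequences came from the RefSeq TAIR10.1 genome and annotation, which holds 31294 of the 34047 IDs and all 36 members. Coordinates of genes are those of the files, counted from 1. A planned protein motif search was not run because no protein table was used here.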

Additional observations from a re-analysis of the deposited data

Results flagged for a closer look

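The IBH1 and IBL1 overexpressors differed at 8 of 25 expansins, beside 5.48% of 20005 genes, by the direct test of the difference described in the report. The lines also differ in transgene level, at 5148 FPKM for IBH1 and 201 FPKM for IBL1, and the part of that level was not tested. On the log2 scale, IBH1 overexpressor minus IBL1 overexpressor, the differences were -0.64 for EXPA1, -0.57 for EXPA4, -0.88 for EXPA5, -0.51 for EXPA6, -3.28 for EXPA8, -1.83 for EXPA11, -0.86 for EXPB3 and -1.86 for EXLA1. Those of EXPA5 and EXPA6 did not pass after median centring. EXLA1 was called higher than Col in one line and lower in the other. The differences of EXPA3, which was called lower in both lines, and of EXPA16 did not pass the test.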

How the results depend on the processing

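No paired analysis was possible because the tables hold 1 value per genotype, and for the same reason no library could be left out. A change of at least 2-fold, added to the q-value, left 4 of the 9 expansin calls in the IBH1 overexpressor, 1 of 2 in the ibh1 mutant, 2 of 5 in the IBL1 overexpressor and 1 of 2 in the ibl1 mutant. A q-value below 0.01 left 1 in the ibh1 mutant and 0 in the ibl1 mutant. In the ibl1 mutant 1 call was left after median centring, 1 when only genes reaching 1 FPKM in line and Col entered and 1 without the status filter. The other counts stayed within 1.5 times, among them 6 instead of 8 members differing between the overexpressors after median centring. Of 85 repeats of single expansin changes 68 kept their call and 17 lost it. The call of EXPA2 in the ibl1 mutant, which has no fold change, was left out of these repeats. The median log2 change of expansins in the IBH1 overexpressor moved from -0.57 to -0.26 when every listed member was counted, the members at 0 entering as unchanged. With line and Col taken to hold equal shares of each squared error, 13 expansins differed between the overexpressors instead of 8, and 2 between the mutants instead of 0. The 17 called single changes with a fold change could not turn direction under these alternatives. Only centring moves a single change, by at most 0.12 on the log2 scale, and the smallest called change was 0.51 in size. Among changes that were not called, centring turned EXPA4, EXPA5, EXPA9, EXPA15 and EXLB1 in the IBL1 overexpressor from between 0.02 and 0.10 to between -0.10 and -0.02, and EXPA14 in both mutants. Medians near 0 also turned: to -0.06 in the IBL1 overexpressor and -0.0021 in the ibh1 mutant after centring, and to -0.02 in the ibl1 mutant with members at 0.1 FPKM or more. Depth per library is unknown, so for genes under about 1 FPKM a difference may not be detectable.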

Other observations

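Coding sequences were compared within and between subfamilies. The 3 EXLA genes were 82.3% to 86.0% identical to each other in coding bases and 39.3% to 46.1% identical to alpha-expansins, while pairs of alpha-expansins ranged from 42.0% to 97.7% with a median of 54.2%. Among near neighbours, EXPA4 and EXPA16 (80.2% identical) were called in different lines, EXPA3 was called in 3 lines and EXPA9 (73.9% identical) in none, and EXPB3 was called in the IBH1 overexpressor and EXPB1 in none. These pairs were chosen after their values were seen, and a call in 1 gene and not in the other does not show that they differ.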
